A study of Mus musculus with 4 samples.

Results

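Expression of 53 splicing factor and small nuclear ribonucleoprotein (snRNP) genes was examined in mouse embryonic stem (ES) cells with and without a knockout (KO) of KAT6A, a histone acetyltransferase of the MYST family. The genes were taken by name from 41543 counted gene symbols. They were the SR protein genes (Srsf, 11 genes), the heterogeneous nuclear ribonucleoprotein genes (Hnrnp, 20), the subunit genes of SF3a and SF3b (9), the U2AF genes (2) and the Snrp genes (11). Snrpn, pseudogene symbols and opposite-strand symbols were left out. Of 54 matching symbols, U2af1l4 had 0 counts in all 4 libraries and did not reach the required mean of 1 CPM (counts scaled to the size of the library), and the other 53 were all tested.

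The cells were E14TG2a, a mouse ES cell line kept on gelatin in medium with fetal calf serum and LIF, a cytokine that holds ES cells undifferentiated. Both groups shared this line and these conditions. Control cells (2 libraries) carried no KO by their label, and KAT6A KO cells (2 libraries) had been edited with CRISPR/Cas9. Libraries were made from polyadenylated RNA with a kit that keeps strand. Nothing in the labels says that replicates were separate cultures, or how many KO clones there were, so the p-values reflect the spread between these samples alone, and that spread may be technical.

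Splicing removes introns from the primary transcript. The snRNPs U1 and U2 mark the ends of an intron, the tri-snRNP of U4, U6 and U5 joins them, and the assembled spliceosome then cuts and joins the RNA. Most snRNPs carry a ring of Sm proteins, encoded by Snrp genes, and U6 carries a ring of LSm proteins instead. U2AF binds the end of the intron and brings in U2, whose SF3a and SF3b subunits hold the branch site. SR proteins, named for stretches of serine and arginine, mostly promote the use of nearby exons, whereas hnRNPs often repress it. Many SR and hnRNP genes limit their own mRNA by splicing in an exon that sends it to nonsense-mediated decay.

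Libraries held 27494041 to 37354623 counts, and the 53 genes took 1.66% and 1.71% of them in control cells and 1.75% and 1.76% in KO cells. Kat6a itself had 145 and 143 CPM in control cells, 242 CPM in KO replicate 1 and 86.4 CPM in KO replicate 2, so its total count does not check the labels. A short edit need not lower the count, the library labelled KO replicate 1 goes against a loss of Kat6a RNA, and KO replicates 1 and 2 below stand for the libraries labelled so. All 10 ES cell markers examined were detected above 1 CPM in every library, and their summed level was 4944 and 4970 CPM in the controls and 6005 and 6658 CPM in the KO libraries, with 2 of the 10 called higher by edgeR and 4 by DESeq2. The summed level of 10 primitive endoderm markers was 2356 and 2232 CPM in the controls, 508 CPM in KO replicate 1 and 1138 CPM in KO replicate 2. Of the 9 tested, edgeR called 6 lower in the KO libraries, and all 9 were lower at an unadjusted edgeR p under 0.05. The 10 neural markers summed to between 95.6 and 140 CPM (of 8 tested, edgeR called 3 higher in KO and 1 lower). The 10 fibroblast markers summed to between 18.7 and 26.6 CPM, with 7 at a mean under 1 CPM and Lum at 0 in all libraries. Whether these marker differences had a part in the changes below was not tested. In bulk RNA, fewer cells of a type and less RNA per cell cannot be told apart.

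Most of the splicing genes differed little between the groups. The quasi-likelihood test of edgeR was adjusted by Benjamini-Hochberg over all 16112 tested genes, with calls made under 0.05. By this test, 3 of the 53 were higher in the KO libraries (Srsf5, Hnrnpd and Hnrnpdl) and 3 were lower (Srsf1, Hnrnph1 and Srsf12). Of all tested genes, 5.76% were called higher and 8.57% lower, together 14.3%, against 11.3% of the splicing genes. Of the 2936 tested genes whose control level reached the lower quartile of the splicing genes (90.8 CPM), 20.2% were called. The difference between these shares was not tested. With an offset for GC content, 8 of the 53 were higher and none lower, as given further down. Leaving out single libraries moved these counts and those of all genes. Without control replicate 1 none of the 53 was higher and 1 was lower, against 1.55% and 4.09% of all tested genes. Without control replicate 2 the counts were 1 and none, against 1.69% and 3.94%. Without KO replicate 1 they were 27 and 11, against 23.9% and 26.2%. Without KO replicate 2 they were 20 and 10, against 20.9% and 22.9%. The median of the log2 fold changes (KO over control) lay at 0.10 over the 53 genes and at 0.01 over all tested genes. It was 0.07 in KO replicate 1 and 0.12 in KO replicate 2. Fold changes were above 0 for 37 of the 53 genes, or 69.8%, against 50.4% of all tested genes. The absolute log2 fold change was under 0.5 for 49 of the 53, or 92.5%, against 73.5% of all tested genes and 88.5% of the 2936 genes whose control level was at least 90.8 CPM, the lower quartile of the splicing genes.

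**Figure D1:**
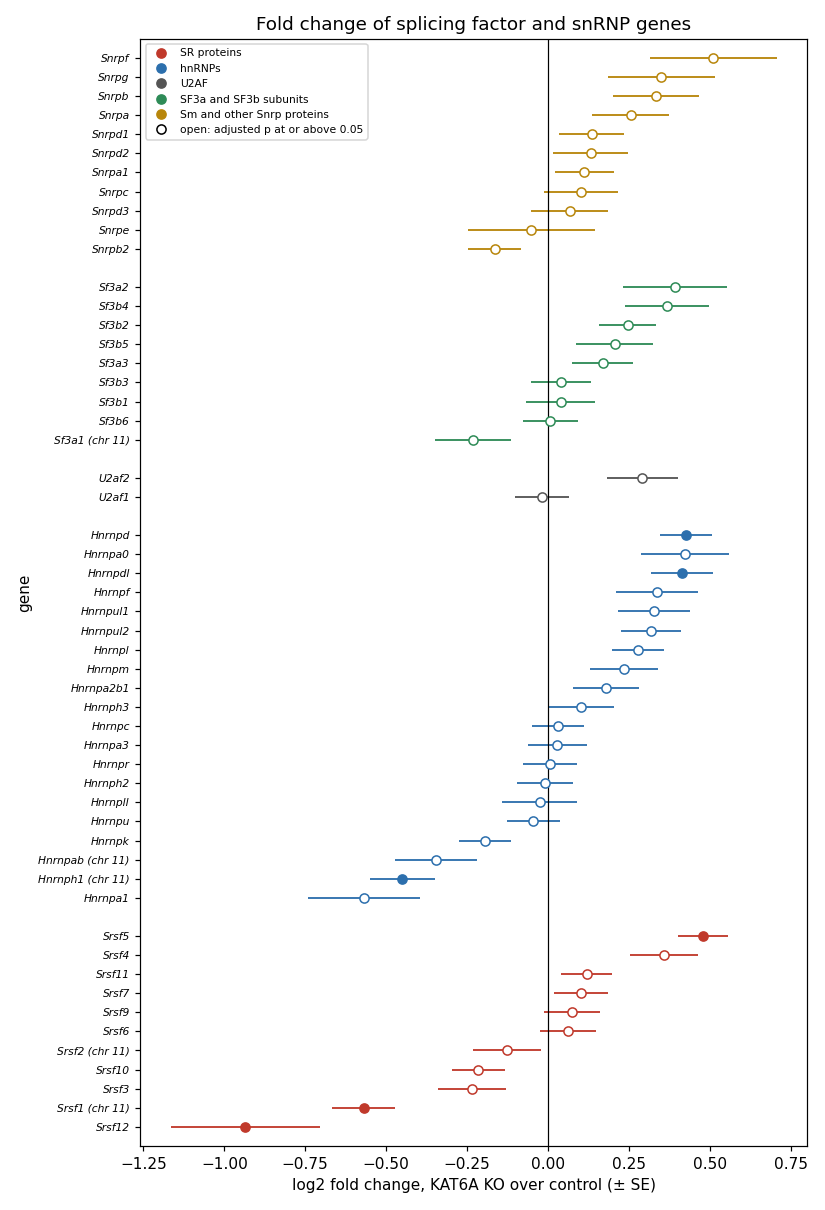
Log2 fold change (x axis, KAT6A KO over control, bars ± SE, 2 libraries per group) of each of the 53 splicing factor and snRNP genes (y axis), ordered within each role. Filled points are the 6 genes with an edgeR adjusted p under 0.05, and all but 4 genes lie within 0.5 of 0.

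The precision of these comparisons sets what could have been seen. The 95% interval of the log2 fold change reached 0.25 to either side of the estimate in the median, from 0.19 for Srsf5 to 0.55 for Srsf12. For 31 of the 47 genes that were not called, the whole interval lay between -0.5 and 0.5. For 52 of the 53 it lay between -1 and 1, Srsf12 being the exception. For the other 16 uncalled genes a change of 0.5 on the log2 scale was within the interval in at least 1 direction.

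The called genes are shown with their promoters because the title of the study concerns binding of KAT6A to unmethylated CpG islands, and almost all of the splicing genes start in CpG-rich DNA. The sequences are the 250 bases before the RefSeq start (GRCm38.p6, written 5′ to 3′ on the strand of the gene, with each CG in capitals) of 2 genes that were higher and 2 that were lower in the KO libraries. They lie at chr12:80945249-80945498 (plus strand, 17 CG), chr5:99978939-99979188 (minus strand, 39 CG), chr11:88047123-88047372 (plus strand, 19 CG) and chr11:50376740-50376989 (plus strand, 17 CG).
Srsf5: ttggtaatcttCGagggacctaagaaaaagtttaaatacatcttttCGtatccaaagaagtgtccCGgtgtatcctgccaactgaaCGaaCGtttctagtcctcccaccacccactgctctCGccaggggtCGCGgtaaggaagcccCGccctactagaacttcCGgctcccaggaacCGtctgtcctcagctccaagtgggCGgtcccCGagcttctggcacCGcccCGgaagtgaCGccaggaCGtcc
Hnrnpd: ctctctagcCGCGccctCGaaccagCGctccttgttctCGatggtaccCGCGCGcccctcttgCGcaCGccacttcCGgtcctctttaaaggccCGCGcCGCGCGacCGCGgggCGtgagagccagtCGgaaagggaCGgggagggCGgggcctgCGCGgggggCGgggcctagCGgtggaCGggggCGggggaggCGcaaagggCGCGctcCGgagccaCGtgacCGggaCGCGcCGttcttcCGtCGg
Srsf1: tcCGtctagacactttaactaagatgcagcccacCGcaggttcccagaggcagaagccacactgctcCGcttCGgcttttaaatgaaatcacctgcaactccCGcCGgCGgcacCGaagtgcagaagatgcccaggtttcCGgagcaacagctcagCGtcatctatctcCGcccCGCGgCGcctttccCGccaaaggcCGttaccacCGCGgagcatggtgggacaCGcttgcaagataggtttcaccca
Hnrnph1: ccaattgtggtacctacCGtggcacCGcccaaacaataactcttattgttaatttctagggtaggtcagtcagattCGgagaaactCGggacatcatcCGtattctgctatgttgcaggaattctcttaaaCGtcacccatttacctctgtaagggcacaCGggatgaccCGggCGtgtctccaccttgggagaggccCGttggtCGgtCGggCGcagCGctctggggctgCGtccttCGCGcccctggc
The window of Hnrnpdl, the third gene that rose, held 33 CG and that of Srsf12, the third that fell, held 19. A relation between the number of CG and the fold change was not tested.

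Promoter sequences were found for 46 of the 53 genes and for 11833 of all tested genes. The number of CG in the 250 bases had a median of 19 in the splicing genes and 15 in all tested genes, and 44 of the 46 (95.7%) had at least 10, against 70.4% of all tested genes. Snrpa1 had the fewest (4) and Hnrnpa0 the most (46). Letters of 5 common promoter motifs were searched on both strands of the same windows. The ETS core CCGGAAG was present in 15 of the 46 (32.6%) and in 12.9% of all tested genes, the CCAAT box CCAAT in 21 (45.7%) and 36.4%, and the GC box GGGCGG in 33 (71.7%) and 58.0%. The TATA box TATAAA was present in 5 (10.9%) and 6.56%, and the E-box CACGTG in 3 (6.52%) and 8.35%. Genes with CCGGAAG were Srsf5 and Hnrnpd, both shown above, Sf3a1, Sf3a2, Sf3a3, Sf3b2, Sf3b3 and Sf3b6. Srsf4, Srsf7, Srsf11, Hnrnpf, Snrpb2, Snrpc and Snrpg had it too. Hnrnpdl, the third gene called higher, did not have it, nor did the 3 genes called lower. The median log2 fold change was 0.17 in the 15 genes with these letters and 0.03 in the 31 without. All tested genes were not split in this way. Of the genes on chromosome 11, where values were lower as given below, Sf3a1 had the letters. Srsf1, Srsf2, Hnrnph1 and Hnrnpab did not. Whether the letters had a part in the difference was not tested. These are matches of letters, not measured binding sites, and KAT6A binding and DNA methylation were not analysed here.

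Among the SR protein genes, 1 rose, 2 fell and 8 did not pass the test. Srsf5, whose product promotes exon inclusion in many transcripts, had 402 and 401 CPM in the controls and 557 and 563 CPM in the KO libraries. Both pairs were tight and far apart. It rose by 0.48 ± 0.08 (SE) on the log2 scale, or 1.39-fold, with an edgeR adjusted p of 0.0161. Srsf5 lies on chromosome 12 at 80945504 to 80950507 (GRCm38, GENCODE M21), and its rise was 0.47 in KO replicate 1 and 0.49 in KO replicate 2.

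Srsf1, the founding SR protein gene, which encodes a splicing factor also known as ASF/SF2, had 904 and 953 CPM in the controls and 666 and 585 CPM in the KO libraries. Its groups did not overlap. It fell by 0.57 ± 0.10 (SE) on the log2 scale, or 1.48-fold, with an edgeR adjusted p of 0.0176. Srsf1 lies on chromosome 11 at 88047373 to 88053755, and the exons of an antisense gene, Gm11508, overlap its own. Srsf12, a scarce SR protein gene on chromosome 4, had 2.62 and 2.75 CPM in the controls and 1.25 and 1.56 CPM in the KO libraries. It fell 1.91-fold (log2 fold change -0.94 ± 0.23 SE, edgeR adjusted p = 0.0449), the largest change among the 53 genes and at the lowest level. With DESeq2 in place of edgeR the adjusted p of Srsf12 was 0.0963.

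The other SR protein genes stayed between -0.24 and 0.36. Srsf2, whose product binds exonic enhancers, had 903 and 1019 CPM in the controls and 827 and 932 CPM in the KO libraries, and the groups overlapped. Srsf3, the smallest SR protein, had 329 and 333 CPM in the controls and 306 and 257 CPM in the KO libraries, a log2 fold change of -0.24 (edgeR adjusted p = 0.168). Both KO values lay below both controls, as they did for Srsf10 (-0.21). Srsf4 stood at 33.4 and 31.3 CPM in the controls and at 39.5 and 43.5 CPM in the KO libraries, a log2 fold change of 0.36 that missed the threshold (edgeR adjusted p = 0.0680). Srsf6 (0.06), Srsf7 (0.10), Srsf9 (0.07) and Srsf11 (0.12) lay closer to 0, with adjusted p from 0.333 to 0.654. Per kilobase of exon, Srsf2 was the highest SR protein gene in the controls (325 CPM per kb), followed by Srsf1 (163), Srsf7 (138), Srsf6 (135) and Srsf5 (101). Srsf12 was the lowest (0.853). The length used here and below takes in all annotated exons of a gene, also those of transcripts with a retained intron. These values are therefore not levels per length of mRNA.

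Of the 20 hnRNP genes, 2 rose, 1 fell and 17 did not pass. Hnrnpd, which encodes AUF1, a protein that binds AU-rich elements and controls mRNA stability, had 310 and 319 CPM in the controls and 435 and 410 CPM in the KO libraries. It rose by 0.43 ± 0.08 (SE) on the log2 scale, or 1.34-fold (edgeR adjusted p = 0.0238). Hnrnpdl, its close relative in sequence, had 366 and 367 CPM in the controls and 522 and 453 CPM in the KO libraries, a rise of 0.41 ± 0.10 (SE), or 1.33-fold (edgeR adjusted p = 0.0381). In both genes each KO library stood above each control. They are neighbours on chromosome 5: Hnrnpd at 99955935 to 99978938 and Hnrnpdl at 100033577 to 100039664, with 54638 bases and 1 protein-coding gene between them, both on the minus strand. The exons of Hnrnpd overlap those of Gm17092, annotated on the opposite strand.

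Hnrnph1, whose product binds runs of G near exons, had 615 and 623 CPM in the controls and 489 and 417 CPM in the KO libraries. Its groups did not overlap, with the lower value in KO replicate 2. It fell by 0.45 ± 0.10 (SE) on the log2 scale, or 1.37-fold (edgeR adjusted p = 0.0344), and lies on chromosome 11 at 50376990 to 50386528. Its close relatives did not follow: Hnrnph2 on the X chromosome had a log2 fold change of -0.01, Hnrnph3 one of 0.10 and Hnrnpf one of 0.34, none of them called. The difference between these relatives was not tested.

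Hnrnpa1 and Hnrnpa0 were not called, with fold changes in the range of the called genes. Hnrnpa1, whose product represses exons in many transcripts, had 62.1 and 65.1 CPM in control cells, 50.8 CPM in KO replicate 1 and 34.9 CPM in KO replicate 2. Its log2 fold change was -0.57 ± 0.17 (SE), and the spread between the KO libraries left the edgeR adjusted p at 0.0742. Hnrnpa1 has processed pseudogenes, so its count is uncertain. Hnrnpa0, an intronless relative, had 225 and 290 CPM in the controls and 325 and 365 CPM in the KO libraries, a log2 fold change of 0.42 ± 0.14 (SE), for which edgeR gave an adjusted p of 0.0855. In the authors' deposited table, 4 of the 53 genes were higher and 3 lower at an adjusted p under 0.05, against 6.94% and 10.1% of the genes with an adjusted p there, together 17.0%. Hnrnpa0 (adjusted p 0.0313 there) and Hnrnpa1 (0.0129) were among these 7 in the authors' deposited table, and Srsf12 was not. DESeq2 on the raw counts also called 4 of the 53 higher and 3 lower, against 17.3% of the genes it tested in either direction.

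Hnrnpu and Hnrnpa2b1, the hnRNP genes with the most reads, were not called. Hnrnpu, which encodes a nuclear scaffold protein, had 1399 and 1481 CPM in the controls and 1396 CPM in each KO library, a log2 fold change of -0.04. Hnrnpa2b1, a reader of exon signals and a carrier of mRNA, had 1424 and 1446 CPM in control cells, 1754 CPM in KO replicate 1 and 1496 CPM in KO replicate 2. Its log2 fold change of 0.18 did not pass (edgeR adjusted p = 0.265). Hnrnpc, whose product packages nascent RNA, stayed at 655 and 641 CPM in the controls and 676 and 647 CPM in the KO libraries. Hnrnpk, a binder of C-rich RNA, was lower in both KO libraries, with a log2 fold change of -0.20 (edgeR adjusted p = 0.147). Hnrnpab on chromosome 11 had 911 and 961 CPM in the controls and 647 and 825 CPM in the KO libraries, a log2 fold change of -0.35 (edgeR adjusted p = 0.113).

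Hnrnpl, Hnrnpul1, Hnrnpul2 and Hnrnpm were above both controls in each KO library, with log2 fold changes of 0.28, 0.33, 0.32 and 0.23 and edgeR adjusted p of 0.0646, 0.0968, 0.0688 and 0.173. Hnrnpa3 (0.03), Hnrnpr (0.01) and Hnrnpll (-0.03) lay near 0. Per kilobase of exon, Hnrnpab was the highest hnRNP gene in the controls (336 CPM per kb), ahead of Hnrnpa2b1 (218), Hnrnpc (150), Hnrnpu (124) and Hnrnph1 (106). Hnrnpr was the lowest (4.63), with a control mean of 103 CPM over 22199 bases of annotated exon.

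**Figure D2:**
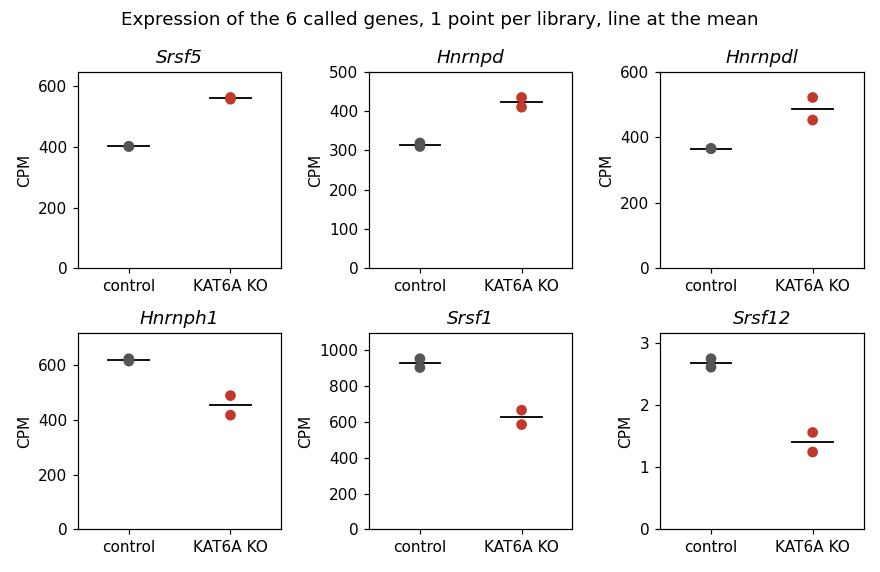
CPM (y axis, starting at 0) of the 6 genes with an edgeR adjusted p under 0.05 in each control and KAT6A KO library (x axis), with 1 point per library and a line at the group mean. In each gene the 2 KO points lie on the same side of both control points, but the genes were picked by their calls in these same libraries. Both KO values lay above both controls in 31.5% of all tested genes and below them in 32.8%.

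Leaving out a control ended most of these calls, while the largest move among the 6 log2 fold changes was 0.04. Without control replicate 1 the edgeR adjusted p was 0.189 for Srsf5, 0.303 for Hnrnpd, 0.296 for Hnrnpdl, 0.176 for Hnrnph1 and 0.212 for Srsf12, and Srsf1 alone of the 6 stayed under 0.05 (0.0458). Without control replicate 2 it was 0.177, 0.215, 0.266, 0.211 and 0.273 for the same 5 genes and 0.108 for Srsf1, while Hnrnpa0 passed (0.0477). Without the KO libraries in turn all 6 stayed under 0.05, the spread then coming from the control pair alone. The sign of all 6 was the same in each of these fits.

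The genes of the U2 branch-site complex and of U2AF did not pass the test. Of the 9 SF3a and SF3b genes, 8 had a fold change above 0, with a median of 0.17. None of the 9 was called by edgeR or by DESeq2, with 3 at an unadjusted p under 0.05 in each. By edgeR, 5455 of all 16112 tested genes had an unadjusted p under 0.05. Sf3a2, the largest, had 114 and 125 CPM in control cells, 130 CPM in KO replicate 1 and 183 CPM in KO replicate 2. Its log2 fold change of 0.39 ± 0.16 (SE) had an edgeR adjusted p of 0.144. Most of it came from KO replicate 2 (0.61, against 0.13 in KO replicate 1).

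Sf3a1, the SF3a subunit gene on chromosome 11, was the only one of the 9 below 0, with 375 and 394 CPM in the controls and 292 and 363 CPM in the KO libraries (log2 fold change -0.23, edgeR adjusted p = 0.219). Sf3b1, the large SF3b subunit around the branch site, had 640 and 642 CPM in control cells, 719 CPM in KO replicate 1 and 599 CPM in KO replicate 2. The KO libraries thus lay on opposite sides of the controls. Sf3b3, which forms the scaffold of SF3b, had 657 and 690 CPM in the controls and 652 and 734 CPM in the KO libraries. Sf3b2 (0.25), Sf3b4 (0.37), Sf3b5 (0.21) and Sf3a3 (0.17) had higher means in the KO libraries, and Sf3b6 (0.01) had nearly equal ones. U2af2, the large U2AF subunit that binds the polypyrimidine tract, had 232 and 237 CPM in the controls and 259 and 315 CPM in the KO libraries, so that its log2 fold change was 0.29 ± 0.11 (SE), with an unadjusted edgeR p of 0.0358 and an adjusted p of 0.121. U2af1, the small subunit that reads the end of the intron, stayed between 57.2 and 58.9 CPM in all 4 libraries.

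None of the 11 Snrp genes was called by edgeR or by DESeq2, with 2 at an unadjusted p under 0.05 in each. Of all 16112 tested genes, 5455 had an unadjusted edgeR p under 0.05. Fold changes were above 0 for 9 of them, with a median of 0.13. The median was 0.02 in KO replicate 1 and 0.24 in KO replicate 2, and 9 of the 11 were higher in KO replicate 2 than in KO replicate 1. Snrpf, a Sm ring protein gene, had 17.4 and 20.1 CPM in control cells, 21.7 CPM in KO replicate 1 and 31.8 CPM in KO replicate 2. Its log2 fold change of 0.51 ± 0.20 (SE) was the largest rise of the 53 genes and had an edgeR adjusted p of 0.125. Snrpb, which encodes the Sm proteins B and B', had 262 and 277 CPM in control cells, 295 CPM in KO replicate 1 and 384 CPM in KO replicate 2, a log2 fold change of 0.33 (edgeR adjusted p = 0.136).

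Snrpe, another gene of the ring, went opposite ways in the KO libraries, from 80.8 and 78.4 CPM in the controls to 93.6 CPM in KO replicate 1 and 59.8 CPM in KO replicate 2. Snrpg had a log2 fold change of 0.35, Snrpd1 0.13, Snrpd2 0.13 and Snrpd3 0.07. Genes of the U1 proteins A and C (Snrpa, 0.26, and Snrpc, 0.10) and of the U2 proteins A' and B'' (Snrpa1, 0.11, and Snrpb2, -0.17) stayed within 0.3 of 0. Per kilobase of exon, Snrpb was the highest of the Snrp genes in the controls (136 CPM per kb), and Snrpe had 58.0, Snrpd3 56.8 and Snrpd1 53.1. Snrpc was the lowest (6.85), with a control mean of 44.6 CPM over 6521 bases of annotated exon. Small Sm genes also have processed pseudogenes, so their single values are uncertain.

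Both KO values lay above both controls for 24 genes and below them for 11, or 45.3% and 20.8%, against 31.5% and 32.8% of all tested genes. In the other 18 (34.0%, against 35.7%) the groups overlapped. In 9 of these the KO libraries stood on opposite sides of the controls (17.0% of the 53, against 15.7% of all tested genes): Sf3b1, Sf3b3, Snrpe, Snrpd3, Snrpc, Snrpd2, Hnrnpll, Hnrnph2 and Hnrnpr. Across the 53 genes, Spearman's rho between the log2 ratios of the KO libraries to the control mean was 0.68. It was 0.67 over all tested genes, and both ratios share the same control mean, so the value is a description only.

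**Figure D3:**
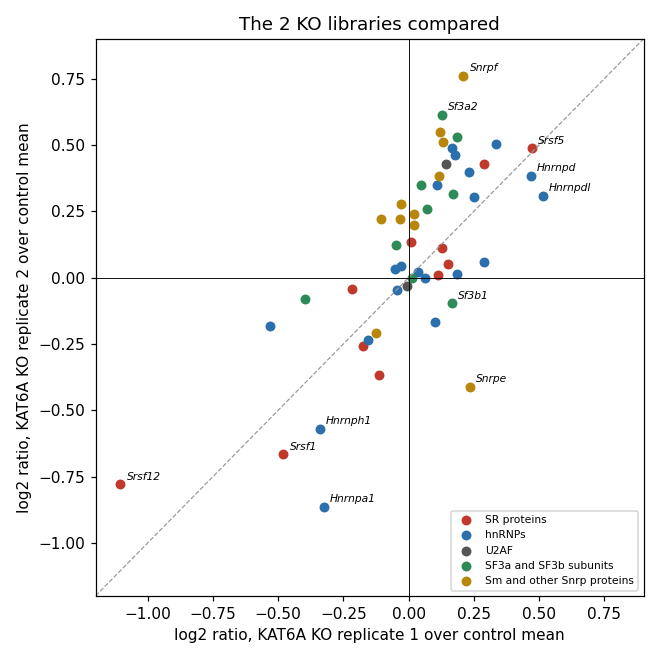
Log2 ratio to the control mean in KAT6A KO replicate 1 (x axis) and replicate 2 (y axis) for each of the 53 genes, coloured by role, with the line of equal values dashed. Most Sm and SF3 genes lie above the line, as in the medians of 0.02 and 0.24 for the Snrp genes, and Snrpe lies far below it.

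Position on chromosome 11 went with lower values. Srsf1, Srsf2, Hnrnph1, Hnrnpab and Sf3a1 are the 5 genes of this set on that chromosome, and all 5 had fold changes below 0, with a median of -0.35. Srsf1 and Hnrnph1 were called, or 40.0% of the 5, against 41.3% of the 1319 tested genes on the chromosome, whose median was -0.46. The 48 genes elsewhere had a median of 0.12, with 3 called higher and 1 lower, against a median of 0.04 for all genes off the chromosome, of which 11.9% were called. Whether the position had a part in the fall of Srsf1 and Hnrnph1 was not tested. Both KO values lay below both controls for 4 of the 5, Srsf2 being the exception, and for 77.0% of all tested genes on the chromosome. With the genes of chromosome 11 left out of the fit, 2 of the other 48 were higher and none lower by edgeR, against 3.51% and 4.71% of the genes tested then. Srsf5 and Hnrnpd were still called, Hnrnpdl and Srsf12 were not (edgeR adjusted p = 0.0632 and 0.0554), and Srsf1 and Hnrnph1 were not in the table.

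Fold changes also moved with the GC content of the transcript, as they did over all genes. Across the 53 genes, Spearman's rho between GC content and log2 fold change was 0.44, with 0.21 in KO replicate 1 and 0.54 in KO replicate 2, and it was 0.37 over all tested genes with a GC value. The points share libraries and depth, so no p is given. The 27 genes at or below the median GC content of 45.5% had a median log2 fold change of 0.01, and the 26 above it one of 0.25. All tested genes split at the same value had medians of -0.20 and 0.08.

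With a GC-content offset, edgeR called 8 of the 53 genes higher and none lower (4 lower at an unadjusted p under 0.05), against 7.08% and 8.01% of all tested genes. The median of the 53 was then 0.21 and that of all tested genes 0.06. The offset turned the sign of the relation in the 53 genes, to a Spearman's rho of -0.26 between GC content and log2 fold change. Srsf5 (0.67), Hnrnpd (0.69) and Hnrnpdl (0.55) stayed called, with edgeR adjusted p of 0.0076, 0.0075 and 0.0107. Srsf7, Hnrnpa2b1, Hnrnpul2, Sf3b1 and Hnrnph3 joined them, with log2 fold changes of 0.37, 0.38, 0.39, 0.29 and 0.30. The falls shrank to -0.27 for Srsf1, -0.29 for Hnrnph1 and -0.76 for Srsf12, with edgeR adjusted p of 0.0607, 0.0507 and 0.0786.

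**Figure D4:**
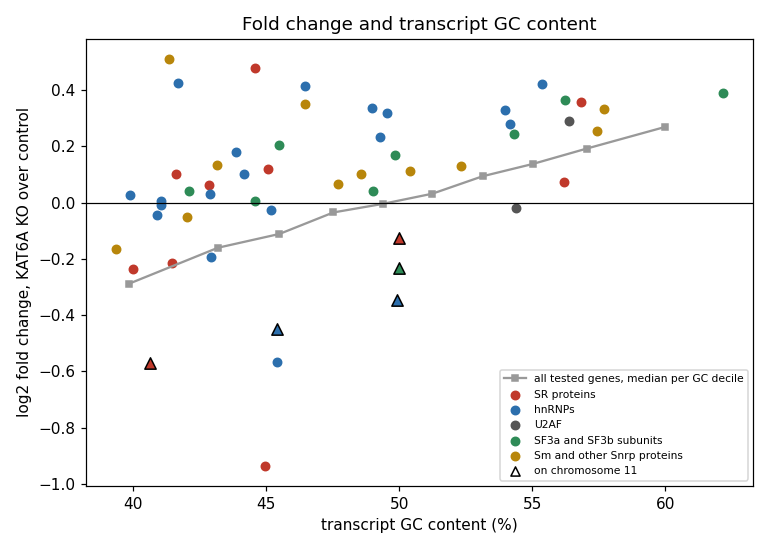
Log2 fold change (y axis, KAT6A KO over control) against transcript GC content in percent (x axis) for the 53 genes, with the median of all tested genes in each GC decile in grey. The grey line climbs from -0.29 to 0.27, the 5 genes on chromosome 11 (triangles) lie below 0, and the 53 genes include 26 above 45.5% GC, with a median of 0.25.

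The annotation of these genes holds many transcripts marked for nonsense-mediated decay. At least 1 such transcript is annotated in 26 of the 53 genes (49.1%), against 26.9% of the 14303 tested protein-coding genes. The share was 9 of 11 among the SR protein genes, 10 of 20 among the hnRNP genes, 4 of 11 among the Snrp genes and 1 of 9 among the SF3a and SF3b genes. Hnrnpd has 4, the most of the set. The median log2 fold change was 0.09 in the 26 genes with such a transcript and 0.13 in the 27 without. The deposited counts sum all transcripts of a gene, so the balance of productive and decaying forms was not measured. The exons of 22 of the 53 genes overlap an exon of another annotated gene, and no source used here gives the strand setting of the counting.

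Calls in the rest of the splicing machinery were near the share over all tested genes. Of 167 tested genes in 11 lists of further spliceosome, splicing regulator, snRNP assembly and decay factors, 9 rose and 16 fell (15.0%, against 14.3% of all tested genes), with a median log2 fold change of 0.08. With the GC-content offset 22 rose and 16 fell (13.2% and 9.58%, against 7.08% and 8.01% of all tested genes). With upper quartile scaling 18 rose and 14 fell (10.8% and 8.38%), against 1128 and 1223 of all 16112 tested genes. The lists were chosen with earlier results of these data known. Of the 16 genes that fell, 11 lie on chromosome 11, which holds 18 of the 167. Of all tested genes 1381 fell, and 536 of these are among the 1319 tested genes of that chromosome.

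In the tri-snRNP list (17 tested), 3 genes rose and 1 fell. Snrnp200, the helicase that unwinds the U4 and U6 RNAs, had 540 and 538 CPM in the controls and 811 and 782 CPM in the KO libraries, a rise of 0.56 ± 0.08 (SE) on the log2 scale (edgeR adjusted p = 0.0128). Prpf3, a protein of U4 and U6, rose by 0.34, Ddx23, a helicase of the U5 snRNP, by 0.35, and Eftud2, the U5 GTPase on chromosome 11, fell by 0.45. Of the U1-associated genes (8), Prpf40b rose by 0.42 and Luc7l3 on chromosome 11 fell by 0.48. Of 26 genes of the Prp19 complex and the catalytic step, Aqr rose by 0.32 and Cwc25 on chromosome 11 fell by 0.46. With the GC-content offset edgeR called 8 of the 26 higher and 1 lower, against 7.08% and 8.01% of all tested genes.

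None of the 13 other U2-associated genes and none of the 8 LSm ring genes was called by edgeR or DESeq2. In each test 3 and 1 had an unadjusted p under 0.05, against 5455 of all 16112 tested genes by edgeR. With the GC-content offset edgeR called 1 gene of each list higher and none lower. The most abundant of each, Rbm39 and Lsm4, had log2 fold changes of 0.09 and 0.28. Without KO replicate 1 the value of Rbm39 was -0.10 (edgeR adjusted p = 0.0442), and without it Lsm4 was called at 0.42. Zmat5 on chromosome 11, of the minor spliceosome that removes rare introns, fell by 0.53, the only edgeR call among 11 genes. DESeq2 called 1 of the 11 higher and 1 lower, and edgeR with the GC-content offset 2 and 3. Of 9 exon junction complex genes, Magohb fell by 1.29 and Casc3 on chromosome 11 by 0.46. Magohb, which encodes a core subunit deposited on spliced mRNA, had 24.3 and 23.9 CPM in the controls and 11.8 and 7.97 CPM in the KO libraries (edgeR adjusted p = 0.0144).

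Among 19 SR-related genes and kinases of SR proteins, Srrm2, a large scaffold of nuclear speckles, rose by 0.38 and Scaf4 by 0.31, while the kinase genes Clk4 on chromosome 11 and Clk1 fell by 0.71 and 0.38. CLK kinases phosphorylate SR proteins and release them from speckles. Of 31 other splicing regulators edgeR called 4 lower and none higher (3 higher at an unadjusted p under 0.05, and 1 by DESeq2). Mbnl3 on the X chromosome had 7.43 and 7.15 CPM in the controls and 3.35 and 2.58 CPM in the KO libraries, a fall of 1.29 on the log2 scale (edgeR adjusted p = 0.0144). Its relative Mbnl1 fell by 0.84, Taf15 on chromosome 11 by 0.84 and Ptbp3, a polypyrimidine tract binding protein, by 0.69. Mbnl1, Ptbp3 and Prpf3 were named after their values were seen. Of 15 snRNP assembly genes, Gemin5, which recognises snRNAs for the SMN complex, fell by 0.59 and Coil, the gene of the Cajal body protein coilin, by 0.31, both on chromosome 11. Of 10 decay genes, Smg9 and Smg5 rose by 0.51 and 0.40 and Smg8 and Smg6, both on chromosome 11, fell by 0.42 and 0.38.

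Leaving out a control ended most of the calls in these lists too, while the largest move among the 25 log2 fold changes was 0.08. Snrnp200 was at 0.56 in both, with an edgeR adjusted p of 0.104 and 0.0988. Of the 25 called genes, 6 kept an edgeR adjusted p under 0.05 without control replicate 1 (Mbnl3, Magohb, Taf15, Clk4, Ptbp3 and Gemin5) and 5 without control replicate 2 (Mbnl3, Magohb, Taf15, Mbnl1 and Ptbp3), so none of the 9 rises was called in either. With the GC-content offset, Prpf40b, Luc7l3, Scaf4, Clk1 and Smg9 were no longer called (edgeR adjusted p = 0.0838, 0.0779, 0.0756, 0.565 and 0.0779).

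**Figure D5:**
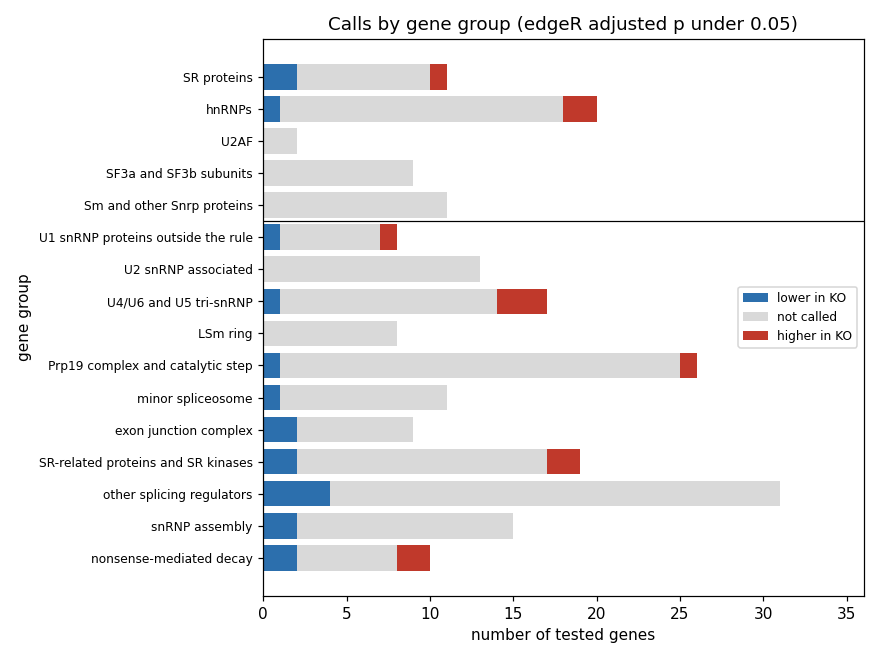
Number of tested genes (x axis) per gene group (y axis) that were lower, not called or higher in the KAT6A KO libraries at an edgeR adjusted p under 0.05. The 5 roles of the 53 genes stand above the line with 3 genes higher and 3 lower, and the 11 further lists below it with 9 higher and 16 lower.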

How the data were processed

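Polyadenylated RNA was sequenced from 2 control and 2 KAT6A KO libraries, grouped by their titles. Each deposited table of a library lists unnormalised read counts by gene symbol. Among tools, the submitters' processing notes list featureCounts and DESeq2, with no version. Not given in the sources used here are the aligner, the build, the annotation and the strand setting. The authors also deposited the table of their own comparison, which has no header: from its values and column order, it holds a mean normalized count (signal), a log2 fold change, a p-value and an adjusted p-value per gene, made by the authors with DESeq2 as far as the processing notes tell.

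Counts were tested with edgeR 4.0.16 in R 4.3.3: genes kept by filterByExpr by group (16112 of 41543 symbols, 99.9% of counts), TMM scaling (factors 0.992 to 1.01), a robust quasi-likelihood fit on the group, and Benjamini-Hochberg adjustment over all tested genes at 0.05. The procedure was tested on simulated data, in which fold changes had no trend with GC content or chromosome, so the test does not cover those features. Simulated counts were drawn independently from means and dispersions fitted to these libraries, with far fewer genes changed than were called here. The simulation therefore does not show how reliable the calls from 2 libraries per group are. Positions, exon lengths, GC content and transcript classes came from GENCODE M21 on GRCm38 (97.1% of symbols matched), and promoters from RefSeq. Transcript GC values existed for 98.4% of the tested genes. Intervals cover the spread between these libraries.

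The 53 genes and all lists were chosen with earlier results of these data known. The rule for named genes allowed any of the 53, with full statistics for those called and for the largest fold change in each role without a call. From each further list it took up to 2 called genes per direction by fold change, or the most abundant gene where none was called. Alternatives were RLE, upper quartile or no scaling, no low-count filter or 1 CPM in 2 libraries, DESeq2 1.42.0, limma-voom (limma 3.58.1), a block for the replicate number, an offset for GC content (lowess, span 0.3), both together, each library left out (the lone library was then assumed to vary like the other group), and chromosome 11 left out. Tables and plots used Python 3.11.15, pandas 2.3.3, scipy 1.17.1 and matplotlib 3.10.9.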

Additional observations from a re-analysis of the deposited data

How the results depend on the processing

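Of the 33 genes followed through 15 alternatives, 482 values were obtained: 396 kept their direction and side of the threshold, 75 lost the call, 10 gained it and 1 turned, Rbm39, at -0.10 without KO replicate 1 and 0.26 without KO replicate 2. Without control replicate 1 or 2, 22 and 25 of the 28 followed genes that had a call lost it, and the largest move of a log2 fold change among them was 0.05. Over the 4 fits with a library left out, all tested genes gave 254 to 4020 higher and 648 to 4400 lower, the 53 genes 0 to 27 higher and 0 to 11 lower, and the further lists 0 to 77 higher and 6 to 47 lower, while the median of the 53 stayed between 0.07 and 0.12. With a GC-content offset the 53 genes gave 8 higher and 0 lower with a median of 0.21, and the further lists 22 higher and 16 lower. The further lists gave 18 higher and 14 lower with upper quartile scaling, and 14 higher and 20 lower with DESeq2. With no low-count filter 5 of the 53 were lower (9.43%, against 7.62% of all tested genes). Without chromosome 11 all tested genes gave 519 higher and 697 lower (3.51% and 4.71%), and the 53 genes 0 lower, with fewer genes tested. The further lists, with 18 of their 167 genes on that chromosome, then gave 4 higher and 5 lower. The cause of the other changes was not tested. The widest interval among the 53 belonged to Srsf12, the gene with the fewest reads (38 to 102 per library).

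The replicate numbers are not said to mark shared batches. Over genes, the deviations of same-numbered libraries from their group means had a correlation of 0.0945. With so few libraries this value cannot tell whether same-numbered libraries shared a batch. With the replicate number as a block, all tested genes gave 1613 higher and 2147 lower, and the 53 genes 11 higher and 5 lower (20.8% and 9.43%, against 10.01% and 13.3%). The 11 included Snrpf, Snrpb, Sf3a2 and Sf3b4, of roles with no call when the block was absent (edgeR adjusted p = 0.0179, 0.0335, 0.0192 and 0.0377). The further lists then gave 20 higher and 23 lower (12.0% and 13.8%). With the replicate block and the GC-content offset together the 53 genes gave 15 higher and 2 lower (28.3% and 3.77%, against 8.56% and 8.93% of all tested genes), with a median of 0.21. The further lists gave 28 higher and 17 lower (16.8% and 10.2%).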
